A study of Mus musculus with 4 samples.

Results

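The cells described here are lung cells picked by transcripts of 5 genes that mark alveolar type 1 (AT1) cells, the flat epithelial cells that line most of the alveolar surface. A cell was taken when Ager, Cldn18, Krt7, Sec14l3 and Hopx together reached 4 UMIs (unique molecular identifiers, 1 per captured transcript), at least 2 of the 5 genes were detected, and Ptprc (immune), Pdgfrb (mural) and Col1a1 (fibroblast) were at 0. Among 23723 kept cells, those with at least 500 genes and at most 10% mitochondrial UMIs, 470 met this rule (1.98%). They are called marker-selected cells below, because the label of carried-along AT1 cells fitted only some of them: 402 of the 470 also held 4 or more UMIs of the endothelial genes Cdh5 and Pecam1 (85.5%, exact 95% binomial interval 82.0% to 88.6%).

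The study profiled cells from digested mouse lungs. Beads first took away cells with CD45 and then collected those with CD31, the protein of Pecam1, so that epithelium is present against the selection. Of the 4 libraries, 1 per group, 3 were made on day 7 after PNX, pneumonectomy, in which lung tissue is removed and the rest regrows. These came from conditional Foxo1 knockout mice (Foxo1cKO PNX), from M3cKO mice (M3cKO PNX) and from wild-type mice (WT PNX), and the last library came from wild-type mice after a sham operation (sham). The labels do not say which gene M3 stands for, which Cre drivers were used, or the sex, age and number of the animals.

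AT1 cells exchange gas across a basement membrane that they share with capillary endothelium, and they carry ion and water channels that keep the airspace dry. They are a known source of VEGF-A, the growth factor that capillaries of the alveolus respond to, above all the aerocytes, capillary cells that lie against AT1 cells and carry Car4 and Ednrb. Cuboidal alveolar type 2 (AT2) cells make surfactant (Sftpc, Sftpb) and can become AT1 cells during repair.

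The 4 libraries held 8720, 9080, 9266 and 7617 barcodes and 27320974, 26848160, 30445999 and 16197681 UMIs in Foxo1cKO PNX, M3cKO PNX, WT PNX and sham. The marker-selected cells held 838873, 163580, 1215847 and 433840 UMIs in the same order, which sets the precision of the levels below. Any pair of libraries shared 68 to 111 barcode sequences, and no marker-selected barcode was shared. With 1 library per group there is no spread between animals and no test. Intervals are exact, at 95%, and cover counting error only.

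The starts of Ager and of Hopx, the most widely detected marker, are shown first, because these genes behaved differently in the data. Ager encodes a pattern receptor abundant on AT1 cells and lies on chromosome 17 (34597862 to 34600936, plus strand, GRCm38). Hopx, a small homeodomain protein without DNA binding of its own, lies on chromosome 5 (77086988 to 77115121, minus strand). The 250 bases before each RefSeq start (GRCm38.p6, chr17:34597600-34597849 on the plus strand and chr5:77115124-77115373 on the minus strand, the first of 2 Hopx starts) read as follows, with capitals marking a match to an NKX2-1 motif.
Ager: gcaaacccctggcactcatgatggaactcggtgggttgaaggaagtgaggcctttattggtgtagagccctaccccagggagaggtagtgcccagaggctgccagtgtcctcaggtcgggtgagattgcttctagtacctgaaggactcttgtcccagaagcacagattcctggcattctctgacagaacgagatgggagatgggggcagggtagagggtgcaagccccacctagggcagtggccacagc
Hopx: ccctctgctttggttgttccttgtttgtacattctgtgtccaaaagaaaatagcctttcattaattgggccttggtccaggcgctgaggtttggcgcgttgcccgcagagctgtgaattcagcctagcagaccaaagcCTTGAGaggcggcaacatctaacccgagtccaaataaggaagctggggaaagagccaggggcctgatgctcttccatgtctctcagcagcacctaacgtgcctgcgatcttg
Both strands were searched for GGAATG (TEAD), CTCAAG (NKX2-1) and CCGGAA (ETS). These letters occurred in 4153, 4378 and 3952 of 32851 such windows, 12.6% and 13.3% for the first pair and a little less for ETS. The Hopx window held CTCAAG once, on the reverse strand 112 bases before the start, and the Ager window held none of the 3. The windows of Krt7, Sec14l3, both starts of Cldn18 and the other Hopx start held none either, which says only that these letters are not in these windows.

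The marker-selected cells were 139 of 6464 kept cells in Foxo1cKO PNX (2.15%, 1.81% to 2.53%), 24 of 5543 in M3cKO PNX (0.433%, 0.278% to 0.644%), 207 of 6397 in WT PNX (3.24%, 2.82% to 3.70%) and 100 of 5319 in sham (1.88%, 1.53% to 2.28%). The M3cKO PNX share was the lowest and the WT PNX share the highest. A UMI threshold selects deeper cells, so each cell was also thinned to 2000 UMIs, leaving out 2099, 2198, 2093 and 3011 shallower kept cells in the order above. At equal depth the rule was met by 1.44% of cells in Foxo1cKO PNX (63 of 4365, 1.11% to 1.84%), 0.359% in M3cKO PNX (12 of 3345, 0.186% to 0.626%), 2.23% in WT PNX (96 of 4304, 1.81% to 2.72%) and 2.51% in sham (58 of 2308, 1.91% to 3.24%). Without thinning the same deeper cells gave 2.93%, 0.658%, 4.32% and 3.47%. The M3cKO PNX share thus stayed lowest at equal depth, while WT PNX no longer lay above sham. Cell shares after a bead selection depend on the selection, and its yield of epithelium per library was not measured. Endothelial cells outside the rule, defined below, made up 55.9%, 42.9%, 57.2% and 84.5% of kept cells in the order above. The make-up of the kept cells, to which the shares refer, thus differed between libraries.

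**Figure D1:**
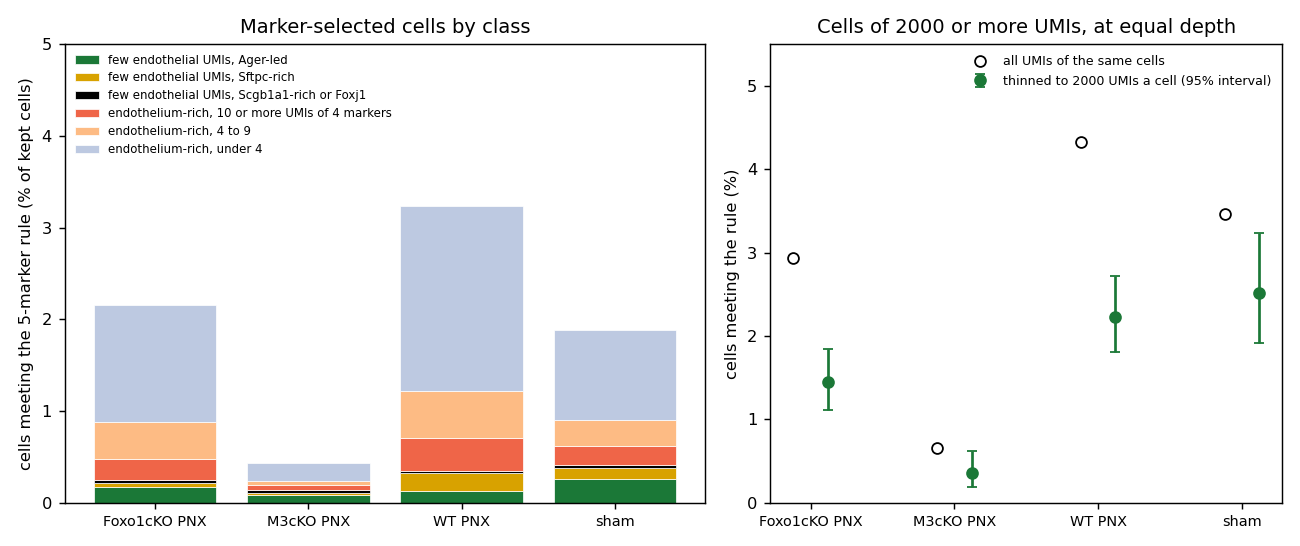
Left, cells meeting the 5-marker rule as a percent of kept cells in each library, stacked by class (Ager-led, Sftpc-rich and Scgb1a1-rich or Foxj1 cells had at most 3 Cdh5 and Pecam1 UMIs, endothelium-rich cells 4 or more). Right, the percent of cells with 2000 or more UMIs that met the rule with all their UMIs (open points) and after thinning to 2000 UMIs (filled points, exact 95% intervals): M3cKO PNX was lowest in both, and the order of WT PNX and sham differed between them.

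The rule chose these cells by the 5 markers, so the marker values are a description. The markers summed to a median of 8 UMIs a cell, with medians of 8, 10, 7 and 9.5 in Foxo1cKO PNX, M3cKO PNX, WT PNX and sham and maxima of 356, 137, 531 and 299. Hopx was the most widely detected marker, in 446 of 470 cells, and supplied 37.7% of all marker UMIs, with a median of 60% per cell. Cldn18, a tight junction claudin, was detected in 294 cells, Sec14l3, a lipid transfer protein, in 240, the keratin gene Krt7 in 215 and Ager in 209. Only 74 cells held all 5 markers, 227 held just 2, and 192 (55, 13, 76 and 48 by library, in the order above) would pass without Hopx. The 65 cells just inside the threshold, at 4 UMIs, included 63 with Hopx, 23 with Ager, 63 with Cdh5 and 63 with Pecam1. The 97 cells just outside it, at 3 UMIs, included 88 with Hopx, 25 with Ager, 95 with Cdh5 and 95 with Pecam1. At the threshold, therefore, cells on both sides held Hopx beside endothelial transcripts.

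Cdh5 (VE-cadherin) and Pecam1 were set beside kept cells outside the rule that passed a like threshold on Cdh5, Pecam1, Cldn5, Egfl7 and Emcn, 14146 endothelial cells in all (3615, 2380, 3657 and 4494 by library). Summed over marker-selected cells, Cdh5 reached 2228, 1168, 1989 and 1819 CPM (the gene's part of each 1e+06 summed UMIs) in Foxo1cKO PNX, M3cKO PNX, WT PNX and sham. Endothelial cells outside the rule held 2475, 2204, 2133 and 2559 CPM of Cdh5. For Pecam1 the marker-selected cells held 2599.9, 1901, 2388 and 2542 CPM, and the endothelial cells outside the rule 3135, 3461, 2919 and 3328 CPM. Over 17 endothelial genes the median level in marker-selected cells was 90.0%, 54.9%, 81.8% and 72.0% of that in endothelial cells of the same library. By cell, 123 of 139, 16 of 24, 185 of 207 and 78 of 100 held 4 or more UMIs of Cdh5 and Pecam1, 8, 2, 11 and 4 held 1 to 3, and 8, 6, 11 and 18 held none. The 68 cells with at most 3 such UMIs are called endothelium-poor and the other 402 endothelium-rich. These divisions, and those by Sftpc and Scgb1a1 that follow, were chosen after the values were seen. The limit of 3 UMIs is a count and not a level, so a shallow cell can fall under it at an endothelial level. In WT PNX 1 endothelium-poor cell held 2 UMIs of Cdh5 and 1 of Pecam1 in a total of 1028.

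**Figure D2:**
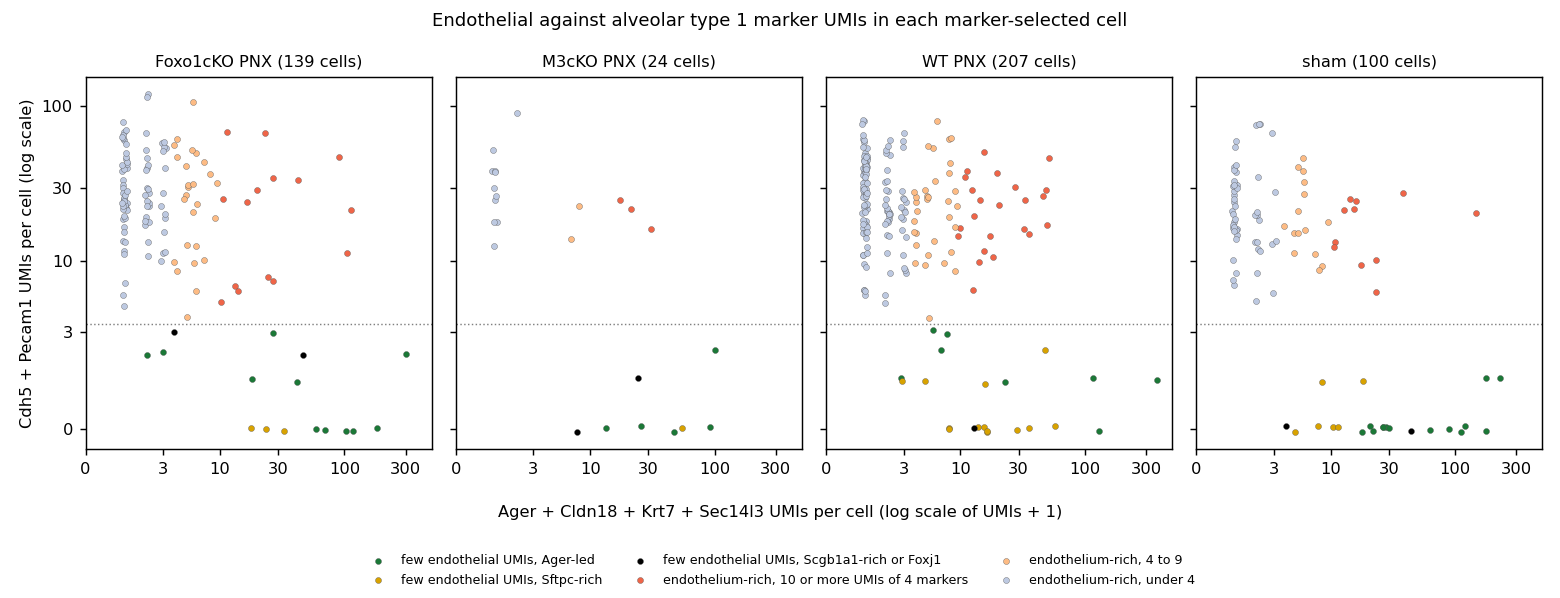
Each point is 1 marker-selected cell, by library: UMIs of Ager, Cldn18, Krt7 and Sec14l3 summed (horizontal, log scale of UMIs + 1, with a small random shift) against UMIs of Cdh5 and Pecam1 summed (vertical, same scale). The dotted line separates the 68 endothelium-poor cells, below it, from the 402 endothelium-rich cells, above it, most of which sit at the far left with under 4 UMIs of the 4 markers.

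Of the 68 endothelium-poor cells, 23 held at least 40 UMIs of the surfactant gene Sftpc. Among the others, 6 held at least 1000 UMIs of Scgb1a1, the secretoglobin of club cells. Of the cells then left, 1, in sham, held at least 2 UMIs of Foxj1, the transcription factor of ciliated cells. Foxj1 was also found in 2 of the 6 cells rich in Scgb1a1. The remaining 38 are called Ager-led after the marker with the most UMIs over all 38 (1077, against 1007 for Hopx and 955 for Cldn18). By library Ager was first of the 5 markers in sham only. Cldn18 was first in Foxo1cKO PNX, and Hopx in M3cKO PNX and WT PNX. Of the 38 cells, 6 held no Ager, and 27 reached 4 UMIs of Ager with 2 or more over Rtkn2, Akap5, Igfbp2, Spock2 and Aqp5. The Ager-led cells numbered 11 in Foxo1cKO PNX (0.170% of kept cells, 0.0850% to 0.304%), 5 in M3cKO PNX (0.0902%, 0.0293% to 0.210%), 8 in WT PNX (0.125%, 0.0540% to 0.246%) and 14 in sham (0.263%, 0.144% to 0.441%). All 4 intervals overlap. With up to 20% mitochondrial UMIs, an alternative chosen after seeing the data, the cells numbered 11, 6, 9 and 22, and the sham share (0.314%, 0.197% to 0.475%) lay above those of M3cKO PNX (0.0714%, 0.0262% to 0.155%) and WT PNX (0.101%, 0.0463% to 0.192%) with no overlap.

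Summed over Ager-led cells, all 5 markers stood far above their level in endothelial cells, with wide differences between cells. Ager stood at 8639.9 CPM in Foxo1cKO PNX (7705 to 9657), 5031 in M3cKO PNX (4060.3 to 6163), 6444 in WT PNX (5582 to 7402) and 11359 in sham (10359 to 12429), against 2.83, 2.27, 4.34 and 4.08 CPM in endothelial cells outside the rule. It was detected in 32 of the 38 cells, with a median of 18.5 and at most 115 UMIs, and in WT PNX 1 cell held 104 of the 200 Ager UMIs. Cldn18 stood at 9615, 5517, 7798 and 6374 CPM, Krt7 at 3540, 3137, 3383 and 3810.2 CPM, and Sec14l3 at 3874, 1893, 3770 and 5200.1 CPM in Foxo1cKO PNX, M3cKO PNX, WT PNX and sham. Hopx stood at 5602, 6275, 7829.9 and 10712 CPM in the same order. In M3cKO PNX 1 of the 5 cells held no Ager, Sec14l3 or Hopx but 5794 of the 18487 summed UMIs. That cell lowers the M3cKO PNX levels of these genes. For Ager and Hopx the sham interval lies above those of the 3 PNX libraries. For Cldn18 the sham interval (5631 to 7188) lies below that of Foxo1cKO PNX (8627 to 10686), and for Krt7 all 4 intervals overlap. These are statements about the transcripts of 14 cells against 5 to 11 and not about animals.

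AT1 genes outside the rule were found in many of the same 38 cells. The other AT1 genes of a 25-gene list together reached 43423, 37432, 45143 and 51522 CPM in Foxo1cKO PNX, M3cKO PNX, WT PNX and sham, against 6233, 5646, 5959 and 6690.3 CPM in endothelial cells outside the rule. The list holds Cav1, Emp2 and Icam1, which endothelium is known to express too. Rtkn2 was found in 31 of the 38 cells, the anchoring protein gene Akap5 in 31, the water channel gene Aqp5 in 29, the proteoglycan gene Spock2 in 28 and Igfbp2, an IGF binding protein gene, in 22. Sftpc was found in 8 of the 38, with at most 4 UMIs, the AT2 and macrophage gene Lyz2 in 2, Mki67, a marker of cycling cells, in 1, and Foxj1 in none. The class holds by definition only cells with under 40 UMIs of Sftpc and under 2 of Foxj1, so these low values were partly fixed by it. Total UMIs of these cells ranged from 681 to 15327, with a median of 2096.

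Against endothelial cells outside the rule, 113 of 512 genes found in at least 50% of Ager-led cells were 3-fold or more higher in all 4 libraries (22.1% of the genes measured), and 1 was 3-fold or more lower (0.195%), the hypoxia factor gene Epas1. Membership rests on 5 of these genes, so the list is a description with no test. Genes found in fewer of the Ager-led cells were not measured, so the higher and lower counts cannot be set against each other. Cdh5, found in 9 of the 38 cells, and Pecam1, found in 12, were left out in this way. The secreted and matrix genes among them were Ndnf, a secreted neuron-derived factor, at 4627, 974, 3061 and 2492 CPM in Foxo1cKO PNX, M3cKO PNX, WT PNX and sham, with at most 1.63 CPM in endothelial cells, the collagen IV chain genes Col4a3 (811 to 1246 CPM, endothelial at most 1.08) and Col4a4 (757 to 1756, at most 1.71), the laminin gene Lama3 (623 to 1136, at most 10.2), and the semaphorin gene Sema3e (379 to 839, at most 0.697). Channel genes included Aqp5 (806 to 1569 CPM, endothelial at most 1.16) and the sodium channel subunit genes Scnn1a (753 to 1028, at most 2.49) and Scnn1g (359 to 865, at most 0.171). Epithelial genes included Cdh1, encoding E-cadherin (548 to 892 CPM, endothelial at most 3.28), the transcription factor gene Nkx2-1 (307 to 1270.1, at most 1.39), the integrin gene Itgb6 (433 to 709, at most 0.387) and Pdpn (935 to 1589, at most 18.4). All of these ranges lie far above the endothelial ones in each of the 4 libraries.

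Vegfa is the gene by which AT1 cells are known to signal to capillaries. In Ager-led cells it stood at 5518 CPM in Foxo1cKO PNX (4776 to 6343), 4165 in M3cKO PNX (3287 to 5206), 4349.9 in WT PNX (3647 to 5149) and 6997 in sham (6218 to 7848), and it was found in 31 of 38 cells. Endothelial cells outside the rule held 743, 684, 953 and 633 CPM of Vegfa in the same order. The 27 genes of the list secreted signals of alveolar epithelium summed to 12932, 9845, 11535 and 15361 CPM in Ager-led cells, against 2325, 2345, 2594 and 2180.2 CPM in endothelial cells. The largest share of that sum held by 1 cell was 65.1%, in WT PNX.

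The 23 Sftpc-rich cells (3, 1, 13 and 6 in Foxo1cKO PNX, M3cKO PNX, WT PNX and sham) carried the surfactant program with a few AT1 marker UMIs. Their median UMIs per cell were 1454 for Sftpc, 254 for Lyz2, 131 for Sftpb, 8 for Cldn18 and 4 for Ager, and Ager was detected in all 23 at 1 to 11 UMIs. Hopx was found in 9 of them, Rtkn2 in 2, Akap5 in 5 and Spock2 in none, while Krt7 was found in 16, Sec14l3 in 15, Vegfa in 15 and Aqp5 in 14. Mki67 was found in 3 of these cells and reached 10 UMIs in 2. The 6 Scgb1a1-rich cells held 4808 to 11614 UMIs of Scgb1a1, and all 6 entered the rule with Sec14l3. In M3cKO PNX, where 2 of 24 cells were of this kind, Scgb1a1 stood at 100416 CPM over all marker-selected cells, with 70.7% of its UMIs in 1 cell.

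**Figure D3:**
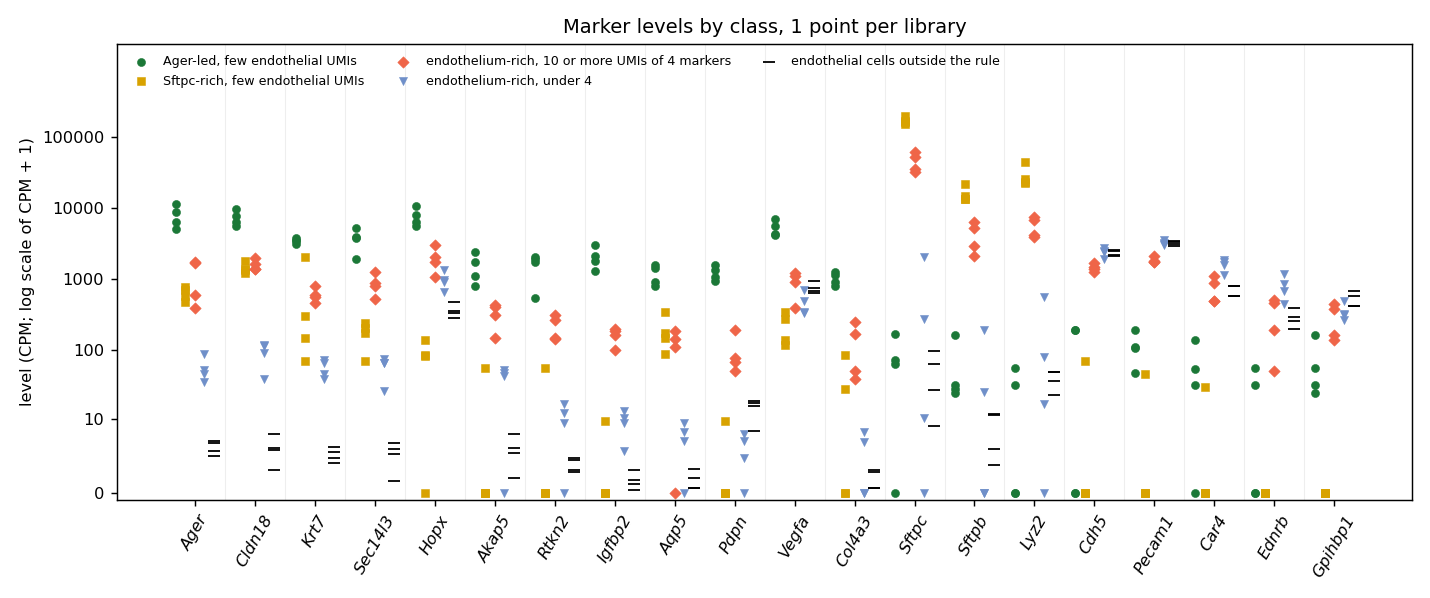
Levels (CPM, log scale of CPM + 1) of AT1, AT2 and endothelial genes in 4 classes of marker-selected cells and in endothelial cells outside the rule, 1 point per library. Ager lay between 5031 and 11359 CPM in Ager-led cells and at most at 4.34 CPM in endothelial cells outside the rule, while Hopx reached 287 to 480 CPM there.

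Summed over all 470 cells, these classes gave a mixed profile. Among 3777 genes found in at least 20% of marker-selected cells, 17 were 3-fold or more higher than in endothelial cells outside the rule in all 4 libraries (0.45%) and 2 were lower (0.053%). Genes found in fewer marker-selected cells were not measured, so here too the higher and lower counts cannot be set against each other. The 17 held all the rule's markers, which is no finding, the AT1 genes Akap5, Rtkn2, Gprc5a and Mal2, and also Sftpc and Scgb1a1. The 2 lower genes, named after their values were seen, were Vwf, the von Willebrand factor gene of larger vessels, at 246, 110.0, 287 and 180 CPM in Foxo1cKO PNX, M3cKO PNX, WT PNX and sham against 1656, 1233, 1943 and 1351 CPM, and Mmrn2, a matrix protein gene of endothelium, at 47.7, 97.8, 52.6 and 78.4 CPM against 281, 362, 245 and 326 CPM.

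The largest class, 274 of the 470 cells, was endothelium-rich with under 4 UMIs of Ager, Cldn18, Krt7 and Sec14l3 (82, 11, 129 and 52 in Foxo1cKO PNX, M3cKO PNX, WT PNX and sham). All 274 held Hopx, without which they could not have met the rule. Over the 17 endothelial genes their median level was 108%, 88.0%, 103% and 99.5% of that in endothelial cells outside the rule. Ager stood at 35.2, 52.4, 45.3 and 86.8 CPM in them and was found in 68 of 274, where the level in Ager-led cells was 5031 to 11359 CPM. In 13 of 996 cells with B-cell transcripts (Cd79a and Ms4a1) Ager was also found, 1.31%, and in 139 of the 14146 endothelial cells outside the rule. In those endothelial cells a higher Ager count is limited by the rule itself, which would have taken most cells with several marker UMIs.

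Hopx was also found in endothelial cells that the rule did not take. Among endothelial cells outside the rule it was found in 2838 of 3729 cells with 2 or more UMIs of the aerocyte genes Car4 and Ednrb (76.1%), at 694, 767, 622 and 1096 CPM in Foxo1cKO PNX, M3cKO PNX, WT PNX and sham. In the 10417 other endothelial cells it was found in 25.8%, at 120, 194, 118 and 196 CPM. In cells with B-cell transcripts Hopx was found in 9.54%. The 274 endothelium-rich cells under 4 UMIs held 974, 669, 921 and 1336 CPM of Hopx, where a high value was chosen, against the values above in cells that were not chosen for Hopx.

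The same 274 cells carried more aerocyte and fewer venous transcripts than endothelial cells outside the rule. The 9 aerocyte genes summed to 5939, 5035, 5717 and 8047 CPM in them, against 2627, 2502, 2207 and 3792 CPM in endothelial cells outside the rule. Car4, a carbonic anhydrase, stood at 1742, 1154, 1577 and 1844 CPM, against 796, 571, 587 and 799.6 CPM. Kdr, the receptor of VEGF-A, stood at 2639.6, 1311, 2425 and 2802 CPM, against 1356, 775, 1168 and 1545 CPM. The 6 venous genes summed to 490.3, 2032, 1005 and 1518 CPM, against 3159, 5493, 3987 and 4228 CPM, and in M3cKO PNX 50.3% of that sum lay in 1 cell. Hopx was part of the rule, so these values describe what the rule took in and are no result about AT1 cells.

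The remaining 128 endothelium-rich cells held the 4 other markers at higher count: 76 had 4 to 9 of these UMIs (26, 2, 33 and 15) and 52 had 10 or more (15, 3, 23 and 11). The 52 had medians of 22 endothelial UMIs and 18.5 UMIs of the 4 markers, and 13 of them also held at least 40 UMIs of Sftpc. Their Ager level was 1755, 397, 591 and 1686 CPM in Foxo1cKO PNX, M3cKO PNX, WT PNX and sham, below the Ager-led level in each library. Their Cdh5 level was 1698, 1490.3, 1367 and 1249 CPM, below that of endothelial cells outside the rule in each library, and the 17 endothelial genes stood at a median of 64.6%, 61.1%, 59.1% and 50.5%. Both kinds of transcript are present in these droplets by the definition of the class.

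Whether a droplet held more than 1 cell was not tested directly. The median total of the 52 cells was 6454, 5510, 6834 and 4129 UMIs in Foxo1cKO PNX, M3cKO PNX, WT PNX and sham, against 2489, 2074, 2671 and 1843 in endothelial cells outside the rule. The 52 were chosen by UMI counts of both kinds of marker, which favours deep cells. The 274 endothelium-rich cells with under 4 UMIs of the 4 markers had medians of 4814.5, 6414, 4582 and 3833.5. The doublet caller Scrublet, at a cut of 0.8% per 1000 barcodes, marked 2 of the 52 (3.85%), 27 of the 274 (9.85%), 0 of the 38 Ager-led cells and 542 of the 14146 endothelial cells outside the rule (3.83%). By library it marked 5 of 139, 6 of 24, 18 of 207 and 6 of 100 marker-selected cells in Foxo1cKO PNX, M3cKO PNX, WT PNX and sham, 25% of those in M3cKO PNX. Scrublet compares cells with random pairs from the same library. Ager-led cells are few there, so pairs of an Ager-led and an endothelial cell are rarely simulated. The share marked among the 52 therefore says little about such pairs. Foxo1cKO PNX and WT PNX held cells with Xist and cells with Y-linked transcripts. Both kinds met in 3 of 43 (6.98%, 1.46% to 19.1%) and 3 of 67 (4.48%, 0.933% to 12.5%) of the endothelium-rich cells under 4 UMIs with either kind, in Foxo1cKO PNX and WT PNX. Among endothelium-rich cells with 4 or more of the 4 markers they met in 0 of 25 and 0 of 31, with exact upper limits of 13.7% and 11.2%. In endothelial cells of 4000 or more UMIs they met in 16 of 528 (3.03%) and 21 of 627 (3.35%), which lies within all 4 of these ranges.

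The comparisons between libraries that follow sum the UMIs of all marker-selected cells per library. A gene was measured when the higher library reached 100 CPM with UMIs in at least 10 cells, and counted when the levels plus 20 CPM differed by at least 2-fold. This is a rule of size and not a test, and a different mix of classes and a different level within cells cannot be told apart in such sums, so class counts and the ratio in endothelial cells outside the rule stand beside each comparison. Both knockout comparisons use the same WT PNX library. Among endothelial cells with either kind of sex-linked transcript, Xist was found in 0 of 718 in M3cKO PNX and 0 of 1148 in sham, whereas Foxo1cKO PNX and WT PNX held both kinds. In M3cKO PNX against WT PNX and in WT PNX against sham, the sex-linked transcripts therefore differ along with the group, and sex and group cannot be told apart.

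WT PNX against sham asks how the cells stood on day 7 of regrowth. Several AT1 transcripts were lower and several transcripts of dividing cells higher in WT PNX. Of 2068 genes measured, 30 were higher (1.45%) and 66 lower (3.19%), 4.64% in all, and 24 of each were also at least 1.5-fold apart in the same direction in endothelial cells outside the rule. Ager stood at 353 CPM (320.2 to 388) in WT PNX and 1498 CPM (1385 to 1618) in sham, a log2 ratio of -2.03, detected in 84 of 207 and 57 of 100 cells. Ager-led cells were 3.86% of the marker-selected cells in WT PNX and 14% in sham. Restricted to endothelium-rich cells, 185 in WT PNX and 78 in sham, the counts were 27 higher and 29 lower and the Ager ratio was -1.40. Over all marker-selected cells under a 5% mitochondrial limit, which left 39 in WT PNX and 23 in sham, 223 were higher and 60 lower, so that more genes were higher than lower.

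Among the 25 other AT1 genes, 20 were measured in WT PNX against sham, 0 were higher and 11 lower, with a median log2 ratio of -1.09, where the median of all measured genes was 0.03 and that of the same 20 genes in endothelial cells outside the rule was 0.04. Cyp2b10, a cytochrome P450 gene, stood at 40.3 CPM in WT PNX and 217 CPM in sham. Spock2 stood at 68.3 and 290.4 CPM, a log2 ratio of -1.81 that was -1.78 in endothelium-rich cells alone. Igfbp2 stood at 75.7 and 329.6 CPM, a ratio of -1.87 that came to -0.63 in endothelium-rich cells, and 52.4% of its UMIs in one library lay in 1 cell. Among the markers of the rule, Sec14l3 had a ratio of -1.57, Hopx -1.21, Krt7 -0.86 and Cldn18 -0.72, and in endothelium-rich cells -0.87, -0.83, 0.20 and -0.31, so the Krt7 direction did not hold there. Hopx also had a ratio of -0.70 in endothelial cells outside the rule.

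Matrix and channel genes were among the lower ones in WT PNX. Of 10 measured basement membrane genes 0 were higher and 4 lower, namely Spock2, Col4a3 (40.3 CPM in WT PNX, 159 in sham), Col4a4 (55.9 and 166) and Lamb3 (31.3 and 99.1). Of 7 measured ion and water transport genes 3 were lower, Scnn1a (46.1 and 161 CPM), the chloride channel gene Clic3 (42.8 and 127) and Aqp5 (58.4 and 145). Of 9 measured secreted signals 4 were lower, Igfbp2, Sema3e (25.5 and 120 CPM), Sema3b and Tgfb2. Within the Ager-led cells the intervals of Spock2 and Col4a3 overlapped. There Spock2 stood at 1901 CPM (1447 to 2452) in the 8 WT PNX cells and 1965 CPM (1563 to 2439) in the 14 sham cells, and Col4a3 at 1160.0 CPM (812 to 1606) and 1246 CPM (931 to 1634). In WT PNX 58.8% of the UMIs of the other AT1 genes in Ager-led cells lay in 1 cell. AT2 and endothelial genes did not pass the size rule in either direction (0 of 13 and 0 of 17 measured), with medians of -0.06 and 0.07.

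The genes higher in WT PNX were led by transcripts of cell division and of platelets. Mki67 had 143 UMIs in 25 WT PNX cells and 1 UMI in sham, a ratio of 51.0 with a counting interval of 9.01 to 2029. Ube2c, a ubiquitin enzyme gene of mitosis, had 128 UMIs in 10 cells and 1 UMI. Hmgb2, a chromatin protein gene, stood at 200.7 CPM in WT PNX and 43.8 CPM in sham, and Stmn1, a microtubule regulator gene, at 584 and 235 CPM. Endothelial cells outside the rule had ratios of 2.97 for Mki67, 2.35 for Ube2c, 1.90 for Hmgb2 and 1.03 for Stmn1 on the log2 scale, against 2.63, 2.49, 1.79 and 1.24 in marker-selected cells. Eln, the elastin gene, stood at 219 CPM in WT PNX and 62.2 CPM in sham, with 45.5% of its UMIs in 1 cell. The platelet genes Ppbp and Pf4 had 242 and 161 UMIs in WT PNX and 6 and 4 in sham, with 65.3% of the Ppbp UMIs in 1 cell. Of the 34 marker-selected cells with Mki67 in all libraries, 1 was Ager-led and 3 were Sftpc-rich. Those 3 were in WT PNX and held 1, 23 and 28 of its 143 Mki67 UMIs.

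A few genes of antigen presentation and stress were lower in WT PNX. Of 4 measured MHC class II genes 1 was lower, H2-Eb1, which stood at 74.0 CPM in WT PNX and 263 CPM in sham, a ratio of -1.59, against -2.94 in endothelial cells outside the rule. Of 11 measured MHC class I genes 3 were lower, H2-T23 (317 and 731 CPM) and the near-identical H2-Q6 and H2-Q7, whose reads may be split uncertainly between copies. Of 10 measured heat shock genes 2 were lower, the near-identical pair Hspa1b (213 and 565 CPM) and Hspa1a (119 and 297 CPM). The aerocyte genes Cyp4b1 (532 and 1413 CPM) and Fibin (104 and 304 CPM) were lower as well, with ratios of -1.38 and -1.39 in marker-selected cells and -1.66 and -1.40 in endothelial cells outside the rule.

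**Figure D4:**
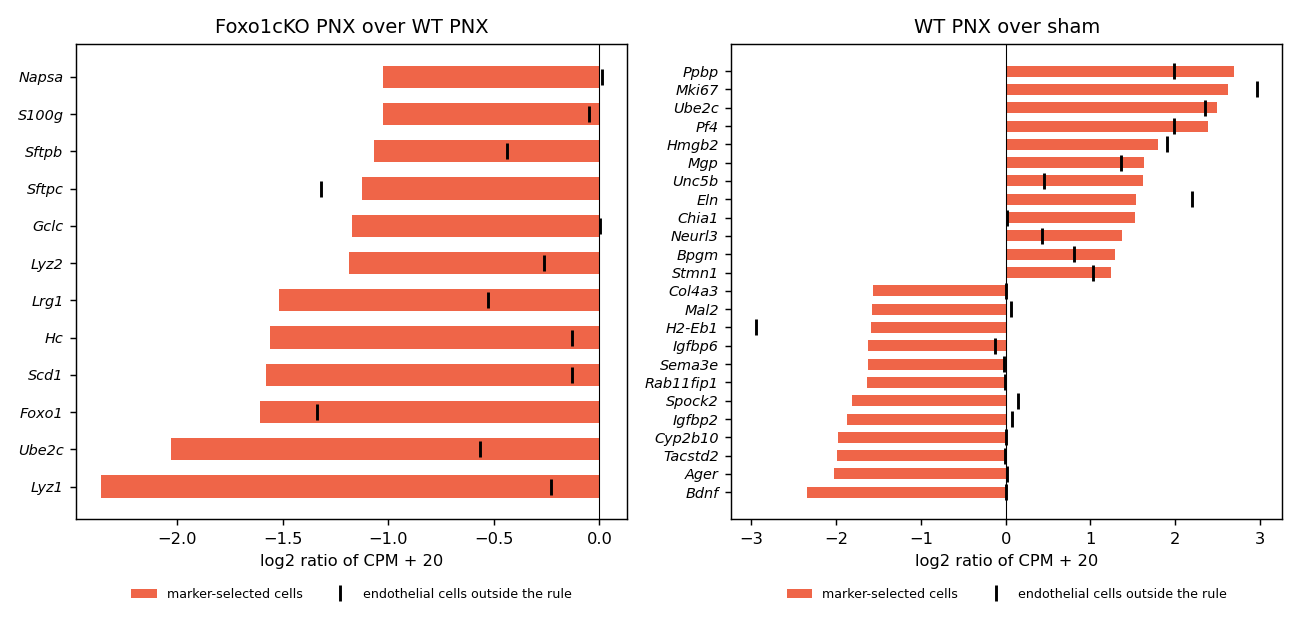
Log2 ratios of CPM + 20 for the genes named by the size rule, Foxo1cKO PNX over WT PNX (left) and WT PNX over sham (right): bars, marker-selected cells; vertical marks, endothelial cells outside the rule. Ager, Spock2 and Igfbp2 had bars of -2.03, -1.81 and -1.87 and marks near 0 in WT PNX over sham, while Mki67, Hmgb2 and H2-Eb1 had bars and marks on the same side.

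Foxo1 encodes a forkhead transcription factor. In marker-selected cells it had 17 UMIs in Foxo1cKO PNX (20.3 CPM, 11.8 to 32.4), 9 in M3cKO PNX (55.0 CPM, 25.2 to 104), 125 in WT PNX (103 CPM, 85.6 to 122) and 49 in sham (113 CPM, 83.6 to 149). The log2 ratio of Foxo1cKO PNX over WT PNX was -1.61 in all marker-selected cells, -1.82 in the endothelium-rich ones and -1.34 in endothelial cells outside the rule, where Foxo1 stood at 72.0 and 212 CPM. The counted reads can lie outside the deleted part, so the remaining level is not a measure of recombination. The Ager-led cells held 1, 0, 1 and 6 Foxo1 UMIs in Foxo1cKO PNX, M3cKO PNX, WT PNX and sham, too few to compare. Rhoj, a small GTPase gene of endothelium, stood at 175, 104, 209.7 and 177 CPM in marker-selected cells of the same libraries.

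The comparison of Foxo1cKO PNX with WT PNX asks what the loss of Foxo1 goes with on the same day. Several AT2 transcripts were lower in Foxo1cKO PNX. Of 2006 genes measured in Foxo1cKO PNX against WT PNX, 2 were higher (0.0997%) and 15 lower (0.748%), 0.847% in all; in endothelium-rich cells alone the counts were 1 and 16. Over all marker-selected cells, the counts were 16 and 27 without Hopx in the rule. Under a 5% mitochondrial limit, which left 23 cells in Foxo1cKO PNX and 39 in WT PNX, they were 60 and 104. The higher genes, named after their values were seen, were Gdpd3, a phospholipase gene, with 142 UMIs in Foxo1cKO PNX and 27 in WT PNX, and Scgb1a1, with 18084 and 10470 UMIs, of which 50.2% in Foxo1cKO PNX lay in 1 cell. AT2 transcripts made up much of the lower set: of 13 measured AT2 genes 0 were higher and 4 lower (Sftpc, Sftpb, Hc and Napsa), with a median log2 ratio of -0.81. Sftpc stood at 10719, 14904, 23401 and 21704 CPM in Foxo1cKO PNX, M3cKO PNX, WT PNX and sham. Few cells weigh heavily in the knockout sums: 1 cell in M3cKO PNX held 1732 Sftpc UMIs, and 3 in Foxo1cKO PNX held 1281, 1683 and 2597. Sftpc was found in 20 of 139 Foxo1cKO PNX cells and 67 of 207 WT PNX cells. Sftpb stood at 1018 CPM in Foxo1cKO PNX and 2156 CPM in WT PNX, the complement gene Hc at 91.8 and 310.1 CPM, and the protease gene Napsa at 73.9 and 171 CPM. Lyz2 stood at 1477 and 3391 CPM and the lipid desaturase gene Scd1 at 288 and 901 CPM. Sftpc-rich cells numbered 3 in Foxo1cKO PNX and 13 in WT PNX, 2.16% and 6.28% of the marker-selected cells. In endothelium-rich cells alone, the log2 ratios were -1.18 for Sftpc, -1.37 for Sftpb, -1.03 for Napsa and -1.06 for Lyz2. Over all marker-selected cells they were -1.12, -1.07, -1.02 and -1.19. This restriction leaves out the Sftpc-rich class but not every cell with at least 40 Sftpc UMIs. Such cells were 2 of the 15 in Foxo1cKO PNX with the highest counts of Ager, Cldn18, Krt7 and Sec14l3. In WT PNX they were 6 of 23. Whether the ratios would hold without them was not tested. Under a 5% mitochondrial limit the log2 ratios of Scd1, Lyz2 and Napsa turned to 0.86, 0.20 and 0.20.

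AT1 transcripts did not pass the size rule in either direction between Foxo1cKO PNX and WT PNX. Of the other AT1 genes 14 were measured, with a median log2 ratio of 0.13, where the median of all measured genes was 0.00. Ager stood at 658 CPM (604 to 715) in Foxo1cKO PNX and 353 CPM (320.2 to 388) in WT PNX, a log2 ratio of 0.86, the largest of the 5 markers. The others were 0.42 for Cldn18, 0.16 for Krt7, 0.42 for Sec14l3 and 0.24 for Hopx. Pdpn, the podoplanin gene, stood at 97.8 and 41.9 CPM, and Spock2 at 129 and 68.3 CPM. Of 17 endothelial genes and 8 aerocyte genes measured 0 passed the rule, with medians of 0.18 and 0.25, against 0.10 and 0.25 in endothelial cells outside the rule. Ube2c was lower, with 9 UMIs in 3 Foxo1cKO PNX cells and 128 UMIs in 10 WT PNX cells, and Mki67 had 41 and 143 UMIs.

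M3cKO PNX contributed 24 marker-selected cells, and single cells weigh heavily in its sums. Scrublet marked 6 of these 24 cells, against 18 of 207 in WT PNX. Of 1933 genes measured against WT PNX, 34 were higher (1.76%) and 137 lower (7.09%), 8.85% in all, and the median log2 ratio of all measured genes was -0.20, relative to which the values below should be read. After setting that median to 0 the counts were 44 and 99. Heat shock genes were higher, 4 of 10 measured, with a median of 0.72 against 1.04 in endothelial cells outside the rule. Hspa1b stood at 1241 CPM (203 UMIs) in M3cKO PNX and 213 CPM in WT PNX, Hspa1a at 599 and 119 CPM, Hsp90aa1 at 1657 and 771 CPM and Hspa8 at 2983 and 1469 CPM. Nr1d1, a nuclear receptor gene of the circadian clock, had 20 UMIs in 13 of 24 cells and 11 UMIs in 10 of 207 cells, a ratio of 13.5 (6.17 to 31.2), and a log2 ratio of 2.29 against 2.41 in endothelial cells outside the rule. Timp3, a metalloproteinase inhibitor gene, stood at 2812 and 904 CPM.

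Some epithelial transcripts were higher in M3cKO PNX. Endothelium-poor cells were 8 of 24 in M3cKO PNX and 22 of 207 in WT PNX, and the part of this mix in the ratios was not tested. Krt7 stood at 685 CPM (564 to 824) in M3cKO PNX and 264 CPM (236 to 295) in WT PNX, and Ager at 739.7 CPM (614 to 884) and 353 CPM (320.2 to 388). Of 10 measured other AT1 genes 2 were higher, the receptor gene Gprc5a, with 121 UMIs in 15 M3cKO PNX cells and 373 in 99 WT PNX cells, and Mal2, a trafficking protein gene, with 31 in 10 and 93 in 38. Aqp5 and Cyp2b10 were found in only 7 and 5 M3cKO PNX cells, below the minimum of 10, and 1 cell held 33.3% and 54.8% of their UMIs. The genes furthest lower were Lyz1, with 0 UMIs in M3cKO PNX and 785 in WT PNX, Mgp, with 1 and 172, and Bpgm, with 1 and 165. Of 10 AT2 genes measured 4 were lower (Hc, Lpcat1, Sftpa1 and Cxcl15), and Sftpc-rich cells numbered 1 and 13. Of 17 endothelial genes 2 were lower, the receptor genes Calcrl (660.2 CPM in M3cKO PNX, 1939 in WT PNX) and Kdr (685 and 1775 CPM). Both were also lower in endothelial cells outside the rule, Calcrl at 1501 and 2172 CPM and Kdr at 775 and 1168 CPM. The median log2 ratio of the 17 genes was -0.59, against 0.04 in endothelial cells outside the rule.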

How the data were processed

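Single-cell RNA was measured in 4 mouse lung libraries, 1 per group. Per the labels' protocols, lungs were digested with type 1 collagenase (2 mg/mL, 40 min, 37 °C), and Cell Ranger 2.1.1 aligned the NovaSeq reads to mm10. R 3.4.4 is named in the submitters' processing notes, and version 3.0.0 of the software in the file headers. As deposited by the authors, the matrices give raw UMI counts for 32285 genes, with no barcode under 500 UMIs.

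Cells, classes and sums were computed with Python 3.11.15, numpy 2.4.6, scipy 1.17.1 and pandas 2.3.3, and figures with matplotlib 3.10.9. Counts were summed per library and class and divided by the summed UMIs (CPM). Intervals are exact Poisson for sums, Clopper-Pearson for shares and conditional binomial for ratios, at 95%, and cover counting error only. The members and gene lists were chosen with earlier results of these data known. Doublets were scored with Scrublet (scanpy 1.11.5) and not removed, except in 1 alternative. Genes named in a comparison were up to 12 per direction with the largest ratio among those passing the size rule that kept their direction in cells with 0 UMIs of Cdh5 and Pecam1, up to 4 genes of a list, and the markers, Cdh5, Pecam1, Foxo1 and Rhoj; mitochondrial, ribosomal, haemoglobin, immunoglobulin and sex-linked genes were left out of these. The size rule was tested on simulated data. Promoter sequences are from RefSeq (GRCm38.p6). Sums compare libraries, not animals.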

Additional observations from a re-analysis of the deposited data

Results flagged for a closer look

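Barcodes outside the cell filter, with under 500 genes or over 10% mitochondrial UMIs, also met the 5-marker rule, a signal in data the report does not use. Foxo1cKO PNX held 49 of them, M3cKO PNX 23, WT PNX 83 and sham 68. As a share of the barcodes outside the filter these were 2.17%, 0.650%, 2.89% and 2.96%. Their median mitochondrial share was 12.7%, 14.7%, 12.2% and 13.8%, and 18, 14, 27 and 45 of them held no Cdh5 or Pecam1 UMI, against 8, 6, 11 and 18 of the kept marker-selected cells. Most of them, 36, 20, 67 and 63, held 4 or more UMIs of Ager, Cldn18, Krt7 and Sec14l3. Raising the mitochondrial limit to 20%, an alternative chosen after seeing the data, gave 11, 6, 9 and 22 Ager-led cells, against 11, 5, 8 and 14 at 10%.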

How the results depend on the processing

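Values run Foxo1cKO PNX, M3cKO PNX, WT PNX, sham. Without Hopx the shares were 0.820%, 0.235%, 1.11% and 0.884%, the endothelial median 62.2%, 23.4%, 57.1% and 41.1%, and the gene counts 16 higher and 27 lower (Foxo1cKO PNX over WT PNX) and 54 and 136 (WT PNX over sham). From 1000 genes the shares were 2.83%, 0.676%, 4.11% and 2.79%, with endothelial medians of 93.5%, 57.4% and, in sham, 75.1%. At 3 UMIs they were 2.54%, 3.89% (WT PNX) and 2.31% (sham), with medians of 91.5%, 60.5%, 83.1% and 74.7%. With 3 markers they were 1.19%, 0.216%, 1.55% and 1.03%, with medians of 75.1%, 35.4%, 63.5% and 53.7%, counts of 10 and 24 for Foxo1cKO PNX and 125 lower for WT PNX over sham. At 8 UMIs they were 1.19%, 0.271%, 1.53% and 1.18%, with medians of 82.1%, 32.6%, 68.8% and 63.8% and counts of 6 and 27 for Foxo1cKO PNX. Under a 5% mitochondrial limit the medians were 88.3%, 15.0%, 98.5% and 74.9%, the counts 60 and 104 for Foxo1cKO PNX and 223 higher and 60 lower for WT PNX over sham. Without Scrublet-marked cells 4 genes were higher in Foxo1cKO PNX, and the medians were 59.8% (M3cKO PNX) and 78.6% (WT PNX). Cells with no Cdh5 or Pecam1 UMI gave shares of 0.124%, 0.108%, 0.172% and 0.338%, counts of 0 and 7 for Foxo1cKO PNX and 100 lower for WT PNX over sham. With no excluded genes the shares were 2.88%, 0.649% and, in WT PNX, 4.69%, the medians 85.6%, 34.0%, 75.4% and 74.4%, and 1 gene was higher in Foxo1cKO PNX. With no level or cell minimum the counts were 7 and 31 for Foxo1cKO PNX and 125 and 136 for WT PNX over sham. Thinned shares were 1.44%, 2.23% and 2.51% in Foxo1cKO PNX, WT PNX and sham. Chosen after seeing the data: the 5% limit gave Ager-led shares of 0.226% (M3cKO PNX) and 0.602% (sham); no exclusion gave 85 and 230, and no minimum 190 and 498, for M3cKO PNX over WT PNX; endothelium-rich cells alone gave 1 higher for Foxo1cKO PNX and 29 lower for WT PNX over sham. Reversed under the 5% limit were Scd1 (0.86), Lyz2 (0.20) and Napsa (0.20) in Foxo1cKO PNX over WT PNX and Bhlhe40 (-1.84), Alas1 (-1.68), Maff (-1.31) and Erbin (0.18) in M3cKO PNX over WT PNX; the cause was not tested. Of 880 values for 84 named results, 579 kept their size and side, 294 moved and 7 reversed. No paired analysis was possible because each group has 1 library. With 5 to 14 Ager-led cells a library, depth limits every level within them.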
